A study of Mus musculus with 48 samples.

Results

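The genes described here are 10 genes of epithelial repair: the ligands of the epidermal growth factor (EGF) receptor amphiregulin (Areg), epiregulin (Ereg), heparin-binding EGF-like growth factor (Hbegf) and transforming growth factor alpha (Tgfa), their receptor Egfr, and Clu, Anxa1, Ly6a, Il33 and Sprr1a, which are used as markers of injured or regenerating epithelium. They were chosen by gene symbol, with 1 line per Ensembl gene, from the expression tables of the villi of duodenum, jejunum and ileum and of liver, skeletal muscle and subcutaneous white adipose tissue (WAT). All 10 of the 15541 genes of the 6 tables had a line in at least 1 tissue. In the intestine 9 of the 10 were among the 11225 genes listed, and Anxa1 was in none of its 3 tables.

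The mice were male C57BL6 animals made obese on a high fat diet, which had Roux-en-Y gastric bypass (RYGB) or sham surgery. RYGB connects a pouch made from the upper stomach with the jejunum, and food no longer passes through the duodenum. Both groups then received an elemental liquid diet and were killed 9 days after surgery, at 10 am after an overnight fast. Villi were scraped off after a short incubation in ice-cold EDTA, so the samples were bulk epithelium with the cells that come off with it, and stranded mRNA libraries were made. Duodenum and jejunum had 3 RYGB and 4 sham libraries each, ileum had 5 and 5, and liver, WAT and muscle had 4 and 4, which makes 48 libraries in 6 tissues. No genotype differed between the groups, and the labels do not say which samples of different tissues came from the same mouse.

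EGF receptor ligands are made as membrane proteins of epithelial and other cells, are released by the protease Adam17, and act on the same or neighboring cells through EGFR and the ERK kinase cascade, which in turn induces its own brakes of the Dusp and Sprouty families. In the intestine this pathway supports crypt cell growth and the restitution of damaged mucosa. Damaged intestinal epithelium is also known to return to a fetal-like state that depends on the coactivator YAP and its TEAD partners, with Ly6a, Anxa1 and Clu among its markers, and IL33 is a nuclear alarmin that barrier cells release when they are injured.

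Values were CPM, gene counts scaled to the same total in each library and rounded to 0.1, which are not divided by gene length, so levels were compared between samples and never between genes. RYGB was compared with sham in each tissue on log2(CPM + 1), and a gene was called when its adjusted p was under 0.05 (limma, Benjamini-Hochberg over all genes of the tissue) and its fold change at least 1.5 on that scale, which understates the change of low genes. In bulk samples fewer cells of a type and less RNA per cell cannot be told apart. A tissue table holds a gene only if the number of its libraries at 1 CPM or more is not below the size of the smaller group.

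The enterocyte markers Vil1, Alpi, Epcam, Cdh1, Krt20, Krt8, Fabp2 and Apoa4 were listed in all 3 segments, and none of the 6 smooth muscle and 7 squamous epithelium markers was. Of 7 fibroblast markers 2 were listed in duodenum and jejunum, with Col1a1, Dcn and Pdgfra absent, and their sum stayed at or below 14.3 CPM. In the duodenum sham 1, sham 2 and RYGB 3 stood apart. The pancreatic enzyme genes Cela1, Clps, Ctrl, Rnase1 and Pnliprp1, a list written after these values were seen, summed to 4995, 16476 and 3571 CPM there and to between 21.1 and 54.0 CPM in the other 4 libraries. In the jejunum RYGB 2 was sequenced on lane 2 and all others on lane 1. In the ileum all RYGB libraries were on lane 1 and all sham libraries on lanes 2 and 3, so that lane and surgery cannot be told apart there.

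The members with a call in the jejunum were Sprr1a, Il33 and Egfr, and the start regions of these 3 genes are shown because the genes rose together there. Sprr1a encodes a cornified envelope protein that is low in intact gut epithelium. The gene lies on chromosome 3 at 92483952 to 92485895 (GRCm38, minus strand), Il33 on chromosome 19 at 29925114 to 29960718 (plus strand), and Egfr on chromosome 11 at 16752203 to 16918158 (plus strand). RefSeq (GRCm38.p6) gave windows of the 250 bases before the start for 6 of the 10 members, with 2 starts for Il33. Capitals mark matches, on either strand, to TGANTCA (the AP-1 motif), GGAATG (the core TEAD motif) or TATAAA (the TATA box).
Sprr1a chr3:92485882-92486131 (minus strand): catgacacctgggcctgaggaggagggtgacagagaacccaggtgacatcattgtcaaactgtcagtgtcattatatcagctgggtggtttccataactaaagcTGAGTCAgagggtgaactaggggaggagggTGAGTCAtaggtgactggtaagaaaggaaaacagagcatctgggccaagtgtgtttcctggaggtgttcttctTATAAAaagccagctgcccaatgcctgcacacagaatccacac
Il33 upstream start chr19:29924863-29925112 (plus strand): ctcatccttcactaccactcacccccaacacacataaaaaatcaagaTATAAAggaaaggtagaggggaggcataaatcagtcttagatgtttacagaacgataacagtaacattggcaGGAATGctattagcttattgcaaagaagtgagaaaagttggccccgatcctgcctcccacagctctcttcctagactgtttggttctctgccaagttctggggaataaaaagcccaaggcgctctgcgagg
Il33 downstream start chr19:29945540-29945789 (plus strand): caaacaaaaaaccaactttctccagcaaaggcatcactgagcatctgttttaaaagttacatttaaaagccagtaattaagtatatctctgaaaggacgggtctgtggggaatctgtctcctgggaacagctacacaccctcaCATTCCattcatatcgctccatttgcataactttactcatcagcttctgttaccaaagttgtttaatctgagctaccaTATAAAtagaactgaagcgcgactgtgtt
Egfr chr11:16751953-16752202 (plus strand): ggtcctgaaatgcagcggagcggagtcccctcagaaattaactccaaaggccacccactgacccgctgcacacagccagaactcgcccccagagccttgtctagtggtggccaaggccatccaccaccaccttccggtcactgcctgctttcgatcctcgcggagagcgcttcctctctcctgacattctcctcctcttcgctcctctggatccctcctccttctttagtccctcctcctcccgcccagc

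The Sprr1a window held 2 copies of TGAGTCA, at 146 to 140 and at 116 to 110 bases before the start, and TATAAA at 43 to 38 bases. In the Il33 windows GGAATG stood at 131 to 126 bases before the upstream start and its complement CATTCC at 107 to 102 bases before the downstream start, and TATAAA at 203 to 198 and at 29 to 24 bases. None of the 3 motifs was in the Egfr window. The motifs do not overlap each other. Over 32841 windows of the same length, 6.75% held TGANTCA, 12.6% GGAATG and 12.4% TATAAA, so that single matches are common. A match is a description of the letters and was not tied to binding or to expression.

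**Figure D1:**
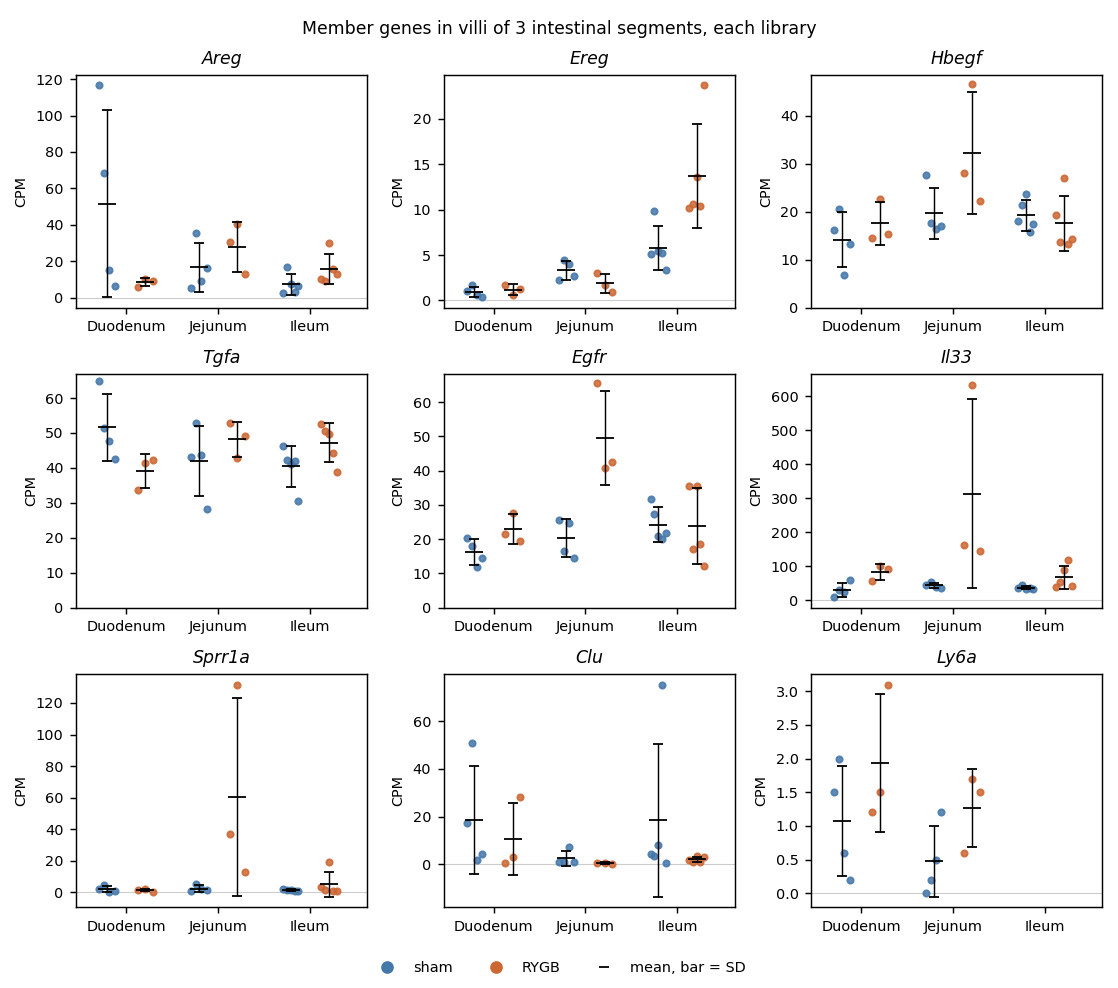
CPM of 9 member genes in each villus library (blue sham, orange RYGB), with the mean and SD of each group as black bars, on a linear axis that differs between genes. In the jejunum all 3 RYGB libraries lie above all 4 sham libraries for Il33, Sprr1a and Egfr, and Clu is high in single libraries of duodenum and ileum.

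In the jejunum, which receives food directly after RYGB, 3 members were higher in RYGB mice and none was lower. Sprr1a rose 14.5-fold, Il33 5.58-fold and Egfr 2.38-fold on the log2(CPM + 1) scale. Of 10 members 9 were listed and 8 had a mean of at least 1 CPM and were tested, and 9.75% of all 10854 genes tested were called, 4.62% as higher and 5.13% as lower. The 3 called members reached the listing limit in either group alone. The median log2 fold change was 0.77 over the 8 members and -0.04 over all genes.

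Sprr1a stood at 36.7, 131.7 and 12.7 CPM in RYGB 1 to 3 and at 0.5, 5.2, 2.1 and 1.2 CPM in sham 1 to 4. Every RYGB library was above every sham library, as for 9.75% of all genes, although the RYGB libraries differed widely among themselves. The log2 fold change was 3.86 ± 0.69 (SE; adjusted p = 0.00832), and it ranked 13 by increase among all genes tested. Without RYGB 2 it was 3.01 (adjusted p = 0.0212), and without RYGB 3 it was 4.65 (adjusted p = 0.00985). Sprr1a has close relatives in its gene family, and reads shared with them could have been lost or divided in counting.

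Il33 was at 162.6, 633 and 143.6 CPM in RYGB 1 to 3 and at 45.3, 55, 39.9 and 34.9 CPM in sham 1 to 4. The lowest RYGB library was above the highest sham library, as for 9.75% of all genes, and RYGB 2 was again far above RYGB 1 and RYGB 3. On the log2 scale the difference was 2.48 ± 0.44 (adjusted p = 0.00821). Without RYGB 2 it was 1.80 (adjusted p = 0.00405). Fibroblasts and endothelial cells also express Il33. In the jejunum the sum of the listed fibroblast markers was 1.9 to 6.1 CPM in RYGB and 0.2 to 5.5 CPM in sham, and that of the endothelial markers, of which Cdh5, Kdr, Eng and Tie1 were not listed, was 5.3 to 8.6 and 5.9 to 8.3 CPM.

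Egfr, the receptor shared by the 4 ligands, was at 65.5, 40.7 and 42.4 CPM in RYGB 1 to 3 and at 25.6, 16.6, 24.7 and 14.5 CPM in sham 1 to 4. The groups did not overlap, which was so in this direction for 9.75% of all genes. Its log2 fold change was 1.25 ± 0.26 (adjusted p = 0.0162), and it was 1.37 (adjusted p = 0.0333) without RYGB 2. An antisense gene, Egfros, overlaps Egfr, and the strand setting of the counting is not given in the sources used here.

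None of the ligands was called in the jejunum. Hbegf, a membrane-anchored ligand released during wound closure, was at 28, 46.6 and 22.3 CPM in RYGB 1 to 3 and at 27.6, 17.6, 16.4 and 17.1 CPM in sham 1 to 4, so that the groups overlapped through sham 1. Its log2 fold change was 0.65 ± 0.28 (adjusted p = 0.179). Areg, a low-affinity ligand, was at 30.3, 40.2 and 13 CPM in RYGB and 5.3, 35.5, 9 and 16.5 CPM in sham. The groups of Areg overlapped widely (0.89 ± 0.56, adjusted p = 0.374).

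Ereg was at 3, 1.7 and 0.9 CPM in RYGB and at 2.2, 4.4, 4 and 2.7 CPM in sham, with a log2 fold change of -0.63 ± 0.30 (adjusted p = 0.228). Tgfa, a ligand of differentiated villus cells, was at 52.8, 42.8 and 49 CPM in RYGB and at 43, 52.8, 43.7 and 28.3 CPM in sham (0.22 ± 0.22, adjusted p = 0.595). The 95% interval for Tgfa ran from -0.26 to 0.71, so changes within it are not excluded. The ranges of both genes overlapped.

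The markers of the revival state were low in jejunal villi. Clu, a secreted chaperone, was at 0.7, 0.7 and 0.1 CPM in RYGB and at 0.8, 1.1, 7.1 and 1.1 CPM in sham, with every RYGB library under every sham library, as for 12.5% of all genes. Its log2 fold change was -0.95 ± 0.48 (adjusted p = 0.257), and the gene was listed only because 3 sham libraries reached 1 CPM. Ly6a, which encodes the surface protein Sca-1, was at 0.6, 1.7 and 1.5 CPM in RYGB and at 0, 0.2, 0.5 and 1.2 CPM in sham. Its mean was under 1 CPM, so it was not tested, and at this level the rounding to 0.1 limits the values.

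**Figure D2:**
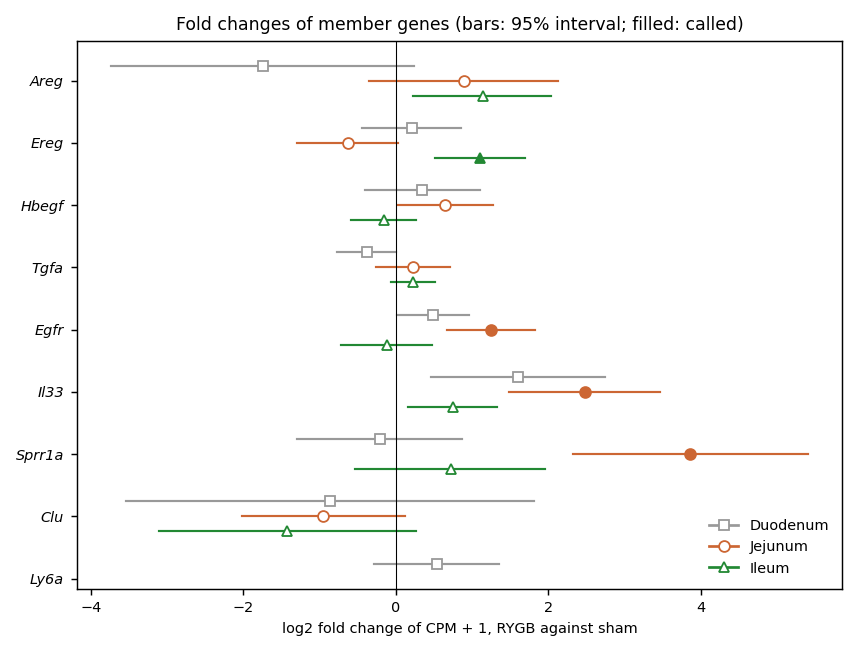
Log2 fold change of CPM + 1, RYGB against sham, for each member tested in duodenum (gray squares), jejunum (orange circles) and ileum (green triangles), with bars for the 95% interval and filled symbols for genes called. Filled symbols are Egfr, Il33 and Sprr1a in the jejunum and Ereg in the ileum, and the intervals of Areg and Clu in the duodenum are the widest.

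Other genes of the pathway were described by 7 lists with 96 genes. In the jejunum 62 were tested, 20 of them were higher and 5 lower in RYGB mice (40.3% called, against 9.75% of all genes). The lists were chosen with earlier results of these data known. The shares called in each segment are therefore descriptions and no test of the pathway. Without RYGB 2 the number called was 12, and without sham 4 it was 16. Of the 20 higher genes, Spry4, Ly6d and Plaur were listed only through the RYGB libraries.

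The list of ERK feedback and early response genes had 6 higher and 1 lower of 15 tested. Phlda1, a gene induced by ERK activity, was at 40.3 to 154.7 CPM in RYGB and at 2.3 to 10.3 CPM in sham (3.80 ± 0.50, adjusted p = 0.00205). Dusp4, a phosphatase of ERK, was 3.21-fold higher (log2 fold change 1.68 ± 0.36, adjusted p = 0.0186), and Spry4, a Sprouty inhibitor of receptor signaling, was at 2.1 to 3.3 CPM against 0.1 to 0.5 CPM (1.54 ± 0.21, adjusted p = 0.00256). All 3 genes were higher in every RYGB library than in any sham library, as for 9.75% of all genes. Spry4 was listed only through the RYGB libraries, so its separation is partly set by the listing. The lower gene was Jun, a subunit of AP-1, at -0.78 ± 0.22 (adjusted p = 0.0479), which was named after its value was seen.

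Of the fetal-like and wound epithelium list 9 of 13 tested genes were higher and none was lower, with a median log2 fold change of 1.09, and another 10 of its 24 genes, among them Msln and Spp1, were not listed. Plaur, the urokinase receptor of migrating cells, had a log2 fold change of 2.48 ± 0.50 (adjusted p = 0.0144). S100a11, a calcium-binding protein, was at 20.9 to 29.5 CPM in RYGB and at 2.6 to 8.5 CPM in sham (2.22 ± 0.31, adjusted p = 0.00285). Ly6d, a Ly6 family surface protein, was at 3.1 to 12.4 CPM against 0.1 to 2.2 CPM (2.22 ± 0.46, adjusted p = 0.017). The ranges of these 3 genes did not overlap between groups, as for 9.75% of all genes in this direction. Plaur and Ly6d were listed only through the RYGB libraries, so their separation is partly set by the listing.

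The YAP and TEAD list moved in both directions. Tead1, the transcription factor, was at 45.5 to 70.1 CPM in RYGB and at 5.4 to 11.4 CPM in sham (2.79 ± 0.28, adjusted p = 0.000678). Amotl2 and Ccn1, which are targets of YAP, were lower, with log2 fold changes of -2.02 ± 0.41 (adjusted p = 0.0159) and -1.31 ± 0.23 (adjusted p = 0.00713). The other 5 of the 8 genes tested were not called, and Ccn2 and Ankrd1 were among the 7 not listed.

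Among the 4 other EGF family genes tested in the jejunum, the ligand betacellulin (Btc) was higher, at 6.6 to 14.9 CPM against 2.1 to 5.7 CPM (1.45 ± 0.33, adjusted p = 0.0243). Nrg4, a ligand of ERBB receptors, and Erbb3 were lower (-1.28 ± 0.23, adjusted p = 0.00828, and -0.81 ± 0.22, adjusted p = 0.0468); both were named after their values were seen. Of the 12 genes of ligand shedding and receptor restraint only Socs3 was called (0.97 ± 0.19, adjusted p = 0.0118), again named afterward, so that no call was made for the sheddase Adam17. Prom1, of the crypt list, had a log2 fold change of 1.98 ± 0.30 (adjusted p = 0.00384), Lgr5 was not listed, and Il1rl1, the receptor of IL33, was not listed in any segment.

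Some markers of other cells moved with these genes in the jejunum. The 5 Paneth cell markers listed summed to 115.1 to 223.3 CPM in RYGB and to 33.3 to 68.5 CPM in sham, and 3 of them were higher. The 4 macrophage markers listed summed to 22.8 to 27.8 and 6.6 to 15.1 CPM, with Adgre1, C1qb and Cd68 not listed. Of the 3 macrophage markers tested only Cd14 was called as higher. Mrc1 and Csf1r were not called (log2 fold changes of 1.06 and 0.19), and C1qa was not tested. The 6 T cell markers listed summed to 8.2 to 16.6 and 38.5 to 61.6 CPM, and 5 of them were lower. Of the 7 neutrophil markers only Ltf was listed (8.8 to 25.2 against 1.7 to 6.0 CPM). The 8 enterocyte markers summed to 24508 to 46858 and 49609 to 76586 CPM, with Apoa4 called as lower and Cdh1 as higher, and their median log2 fold change was 0.27. Of the 6 goblet cell markers 2, Clca1 and Spink4, were higher, with sums of 4446 to 7367 and 4152 to 6351 CPM. The part of these cells in the results of the members was not tested.

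**Figure D3:**
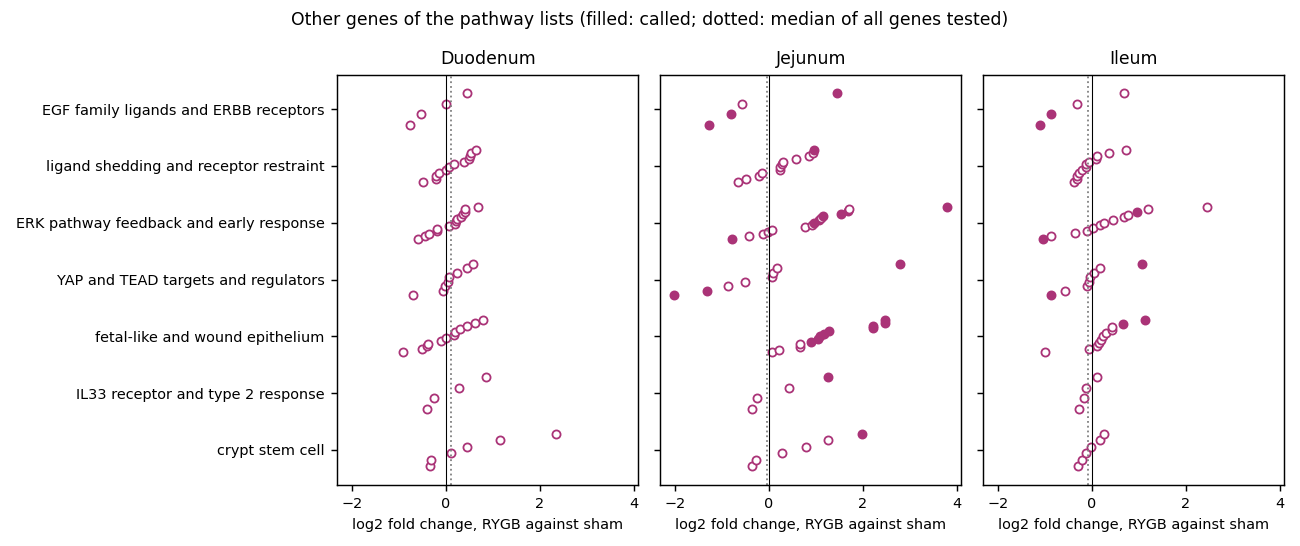
Log2 fold change, RYGB against sham, of each gene of the 7 pathway lists tested in duodenum, jejunum and ileum, with filled circles for genes called and a dotted line at the median of all genes tested. Filled circles lie mostly to the right of 0 in the jejunum (20 higher, 5 lower), on both sides in the ileum (4 and 4), and there are none in the duodenum.

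In the ileum, which lies downstream of the rejoined bowel, Ereg was the only member called and was 2.15-fold higher in RYGB mice. Of all 10735 genes tested 6.05% were called and 1.64% were called as higher. Of the 10 members 8 were listed and all of these were tested. Their median log2 fold change was 0.47, against -0.09 over all genes.

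Ereg, a ligand of EGFR and ERBB4, was at 10.2, 10.6, 13.6, 10.4 and 23.7 CPM in RYGB 1 to 5 and at 5.1, 9.9, 5.4, 5.2 and 3.4 CPM in sham 1 to 5. Every RYGB library was above every sham library, as for 2.42% of all genes, although RYGB 1 and sham 2 nearly met. On the log2 scale the difference was 1.10 ± 0.27 (adjusted p = 0.0305). The call was lost without RYGB 2 and without sham 1, 3, 4 or 5 (adjusted p from 0.0179 to 0.0737 over the 10 fits that each left out 1 library). The antisense gene Gm19610 overlaps Ereg.

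Areg lies 45952 bases downstream of Ereg on chromosome 5. In the ileum it was at 10.4, 9.3, 29.9, 15.7 and 12.9 CPM in RYGB and at 2.6, 16.6, 7.5, 3.3 and 6.1 CPM in sham. Sham 2 was high within its group for both genes, and only sham 2 overlapped the RYGB range of Areg. The log2 fold change of Areg was 1.14 ± 0.41 (adjusted p = 0.105), and without sham 2 it was 1.47 and called (adjusted p = 0.0346).

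Il33 was at 38.6, 54.7, 88.6, 117.7 and 41.4 CPM in ileal RYGB villi and at 35.3, 44.4, 34.7, 36.9 and 32.6 CPM in sham villi. The sham libraries lay close together, and RYGB 1 and 5 fell within their range. The log2 fold change was 0.75 ± 0.27 (adjusted p = 0.103). Sprr1a was at 3.6, 1.4, 19.1, 0.9 and 0.5 CPM against 1.8, 1.6, 1.5, 0.7 and 0.7 CPM, with only RYGB 1 and 3 above all sham libraries (0.72 ± 0.57, adjusted p = 0.45).

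Egfr and the remaining ligands showed small differences in the ileum. Egfr was at 35.5, 17.2, 35.6, 18.6 and 12 CPM in RYGB and at 31.6, 27.2, 20.8, 19.9 and 21.7 CPM in sham (-0.12 ± 0.28, 95% interval -0.72 to 0.48). Hbegf was at 13.4 to 27.0 CPM and 15.7 to 23.7 CPM (-0.16 ± 0.20), and Tgfa at 38.9 to 52.7 and 30.4 to 46.2 CPM (0.22 ± 0.13). The ranges overlapped for all 3 genes.

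Clu in the ileum was at 1.8, 0.9, 3.5, 1.1 and 3.2 CPM in RYGB and at 4.2, 3.6, 8.3, 75.3 and 0.7 CPM in sham. Sham 4 was far above all other ileal libraries. Clu had a log2 fold change of -1.42 ± 0.78 (adjusted p = 0.265), and without sham 4 one of -0.60.

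Of the 58 genes of the pathway lists tested in the ileum 4 were higher and 4 lower (13.8% called, against 6.05% of all genes), and the number called ranged from 4 to 9 when 1 library at a time was left out. The lowest number, 4, was reached without RYGB 3, sham 1, sham 2 or sham 3, and 5 were called without RYGB 2 or sham 5. S100a11 (1.13 ± 0.30), Tead1 (1.07 ± 0.28), Dusp4 (0.97 ± 0.25) and the annexin Anxa2 (0.67 ± 0.14) were higher, with adjusted p of 0.0425, 0.0409, 0.0352 and 0.0175. The receptors Erbb3 and Erbb2 were lower, by log2 fold changes of -1.10 ± 0.13 (adjusted p = 0.00332) and -0.88 ± 0.16 (adjusted p = 0.0105), with no overlap between groups, as for 6.92% of all genes in this direction. Jun (-1.05 ± 0.25, adjusted p = 0.0269) and Amotl2 (-0.88 ± 0.18, adjusted p = 0.0162) were the other lower genes. T cell markers were lower here too, with sums of 5.3 to 17.2 CPM in RYGB and 23.9 to 61.0 CPM in sham, and 4 of 5 called. Of the 6 goblet cell markers, Clca1 and Spink4 were higher, with log2 fold changes of 0.83 and 0.75. Muc2, Tff3, Fcgbp and Agr2 were not called, and the goblet sums overlapped (6189 to 7384 against 4641 to 7287 CPM). Of the 3 macrophage markers listed, only Cd14 was called as higher (1.03). Cidec was higher (0.88) and was the only gene listed of the 5 adipocyte markers, with Adipoq, Plin1, Fabp4 and Lep absent. The part of these cells in the results was not tested.

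In the duodenum, which food bypasses after RYGB, no member was called, and 2 of the 9 tested had an unadjusted p under 0.05. Over all 10850 genes 0.00922% were called and 18.8% had an unadjusted p under 0.05. The median log2 fold change was 0.21 over the members and 0.12 over all genes, and scaling the libraries by median ratios moved the latter to 0.00.

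Il33 had the largest increase, at 56.6, 102.1 and 91.8 CPM in RYGB 1 to 3 and at 10.1, 31.1, 24.1 and 58.7 CPM in sham 1 to 4. Only sham 4 reached the RYGB range. On the log2 scale the difference was 1.60 ± 0.50 (adjusted p = 0.173), and without sham 4 it was 1.98 and called (adjusted p = 0.0305). With only the 4 libraries low in pancreatic genes it was 0.99 ± 0.46 (adjusted p = 0.649). The listed fibroblast markers summed to 6.5 to 14.3 CPM in duodenal RYGB villi and to 0.8 to 8.2 CPM in sham villi. The sums of the listed endothelial markers were 6.7 to 9.3 and 4.0 to 7.2 CPM. None of these markers was called, and the part of these cells in the level of Il33 was not tested. Egfr was at 21.6, 27.7 and 19.5 CPM against 20.3, 18, 11.9 and 14.5 CPM, with ranges that just overlapped (0.49 ± 0.21, adjusted p = 0.25).

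Areg was at 5.9, 10.3 and 9.3 CPM in duodenal RYGB villi and at 116.7, 68.2, 15 and 6.2 CPM in sham villi. Its level in sham 1 and sham 2, which carried the pancreatic genes, was far above the rest, while RYGB 3, which also carried them, was not. For Areg the log2 fold change was -1.74 ± 0.87 (adjusted p = 0.317), and it was -0.28 ± 0.43 with only the 4 libraries low in pancreatic genes. Clu was at 0.7, 3.2 and 28.1 CPM in RYGB and at 17.3, 50.7, 1.7 and 4.3 CPM in sham. Its 3 highest libraries were the 3 high in pancreatic genes. The log2 fold change of Clu was -0.86 ± 1.17 (adjusted p = 0.722), and -0.50 ± 0.53 in the 4 libraries low in pancreatic genes.

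**Figure D4:**
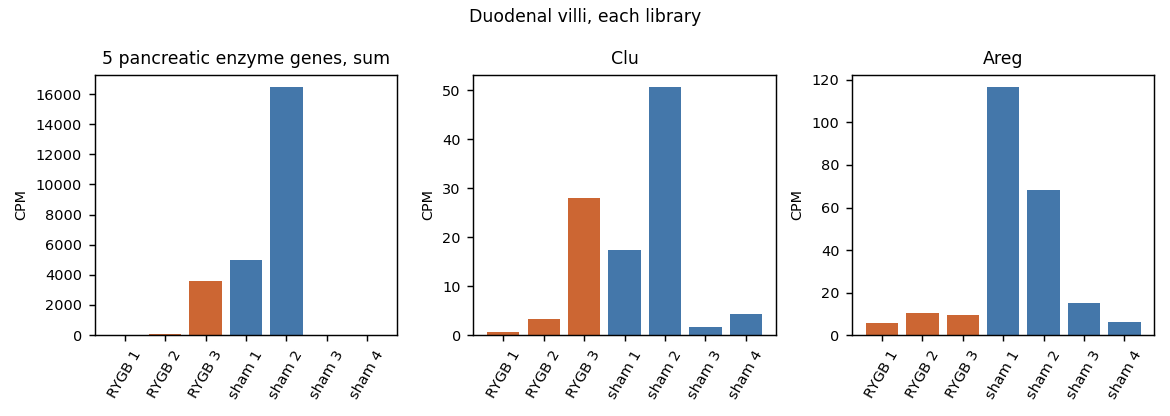
CPM in each duodenal library (orange RYGB, blue sham) of 5 pancreatic enzyme genes summed, of Clu and of Areg, as bars from 0. Sham 1, sham 2 and RYGB 3 have the high pancreatic sums and the high Clu levels, and Areg is high in sham 1 and sham 2.

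Tgfa was at 33.6, 41.4 and 42.3 CPM in duodenal RYGB villi and at 65, 51.4, 47.7 and 42.5 CPM in sham villi, with no overlap by a margin close to the rounding. Lower levels without overlap were found for 2.93% of all genes, and the log2 fold change was -0.38 ± 0.17 (adjusted p = 0.271). Hbegf was at 14.6, 22.7 and 15.4 CPM against 16.2, 20.6, 6.9 and 13.2 CPM (0.35 ± 0.33). The low members Ereg (0.6 to 1.7 against 0.4 to 1.7 CPM), Ly6a (1.2 to 3.1 against 0.2 to 2.0 CPM) and Sprr1a (0.4 to 1.8 against 0.4 to 4.6 CPM) overlapped between groups. None of the 60 pathway genes tested was called. Unlike in jejunum and ileum, the T cell markers had a positive median log2 fold change (1.22, none of 6 called), with sums of 40.6 to 91.9 CPM in RYGB and 14.7 to 47.0 CPM in sham.

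Across the villus groups Ereg had its highest mean in ileal RYGB villi (13.7 ± 5.76 CPM, SD, n = 5), followed by ileal sham villi (5.80 ± 2.43 CPM, n = 5), and these neighbors did not overlap. The next were jejunal sham villi (3.33 ± 1.04 CPM, n = 4), and all further neighbors overlapped down to duodenal sham villi (0.925 ± 0.574 CPM, n = 4). The highest mean of Il33 was in jejunal RYGB villi (313 ± 277 CPM, n = 3), with no overlap with duodenal RYGB villi (83.5 ± 23.9 CPM, n = 3), and the villus groups below overlapped their neighbors. Sprr1a and Areg overlapped between all 5 pairs of neighbors, since libraries of 1 group spread widely. The tables were normalized separately by tissue, so these orders are descriptions.

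Over the 24 villus libraries, each centered on the mean of its segment, the members most alike were Egfr and Sprr1a (Pearson r = 0.68), Hbegf and Egfr (0.67), Hbegf and Sprr1a (0.66) and Il33 and Sprr1a (0.64). Areg and Ereg had 0.40, and Clu had between -0.26 and 0.19 with every other member compared. Of 10442 genes, those most like Egfr were Fam102b (0.851), Cast (0.838) and Prkx (0.813). Those most like Il33 were Irf2 (0.852), Pfkp (0.837) and the pseudogene Tmem181c-ps (0.835), and those most like Sprr1a were Pard6b (0.906), Mpzl3 (0.901) and Slfn4 (0.897). Those most like Ereg had lower values, Abhd6 (0.735), Fabp2 (0.717) and Rasl12 (0.708). The points share libraries and the surgery effect, and the values are descriptions.

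Outside the intestine the members followed other patterns, and Areg, Ereg and Sprr1a were not listed in liver, WAT or muscle. In the liver 7 members were listed, 2 were higher, 1 was lower, and 7.08% of all 11807 genes were called, 5.79% as higher and 1.29% as lower. Egfr, a major receptor of hepatocytes, was at 411.7, 530, 448.8 and 465.9 CPM in RYGB 1 to 4 and at 760, 775, 613 and 999.2 CPM in sham 1 to 4. Every RYGB library was below every sham library, as for 3.05% of all genes. On the log2 scale the difference was -0.74 ± 0.16 (adjusted p = 0.0196), against a median of 0.13 over all genes, which scaling by median ratios moved to -0.01. Without RYGB 3 the call was lost (adjusted p = 0.0622).

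Tgfa in the liver was at 27.9, 38.7, 48.5 and 31.2 CPM in RYGB and at 22.1, 24.8, 24.3 and 21.2 CPM in sham, without overlap, as for 13.4% of all genes in this direction. Its log2 fold change was 0.61 ± 0.16 (adjusted p = 0.0401), but the call was lost in 6 of the 8 fits that left out 1 library (all except those without RYGB 1 or RYGB 4) and after scaling (0.47). Anxa1, a phospholipid-binding protein abundant in neutrophils, was at 13, 43.6, 21.4 and 10 CPM in RYGB and at 5, 5.9, 5.7 and 5.6 CPM in sham. As for Tgfa, no libraries overlapped, and the log2 fold change was 1.60 ± 0.35 (adjusted p = 0.0216), with the call lost without RYGB 3, sham 1 or sham 4. The 7 neutrophil markers summed to 41.5 to 658.7 CPM in RYGB livers and to 12.3 to 20.8 CPM in sham livers, and 4 were called as higher. The 7 fibroblast markers summed to 422.2 to 862.7 and 283 to 385 CPM with 4 higher, and the 7 macrophage markers to 437.3 to 1136.7 and 244.6 to 420.2 CPM with 2 higher. The part of these cells in the level of Anxa1 was not tested. Clu, which hepatocytes secrete, was at 1253.5 to 1624.4 CPM in RYGB and 1272.3 to 1671.1 CPM in sham (-0.02 ± 0.15, 95% interval -0.34 to 0.31). Hbegf was at 1.2 to 2.2 against 0.7 to 1.0 CPM (0.50 ± 0.17, adjusted p = 0.0889). It reached the listing limit only through the RYGB livers, and rounding limits values this low. Il33 was at 3.0 to 3.5 against 3.3 to 5.5 CPM.

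**Figure D5:**
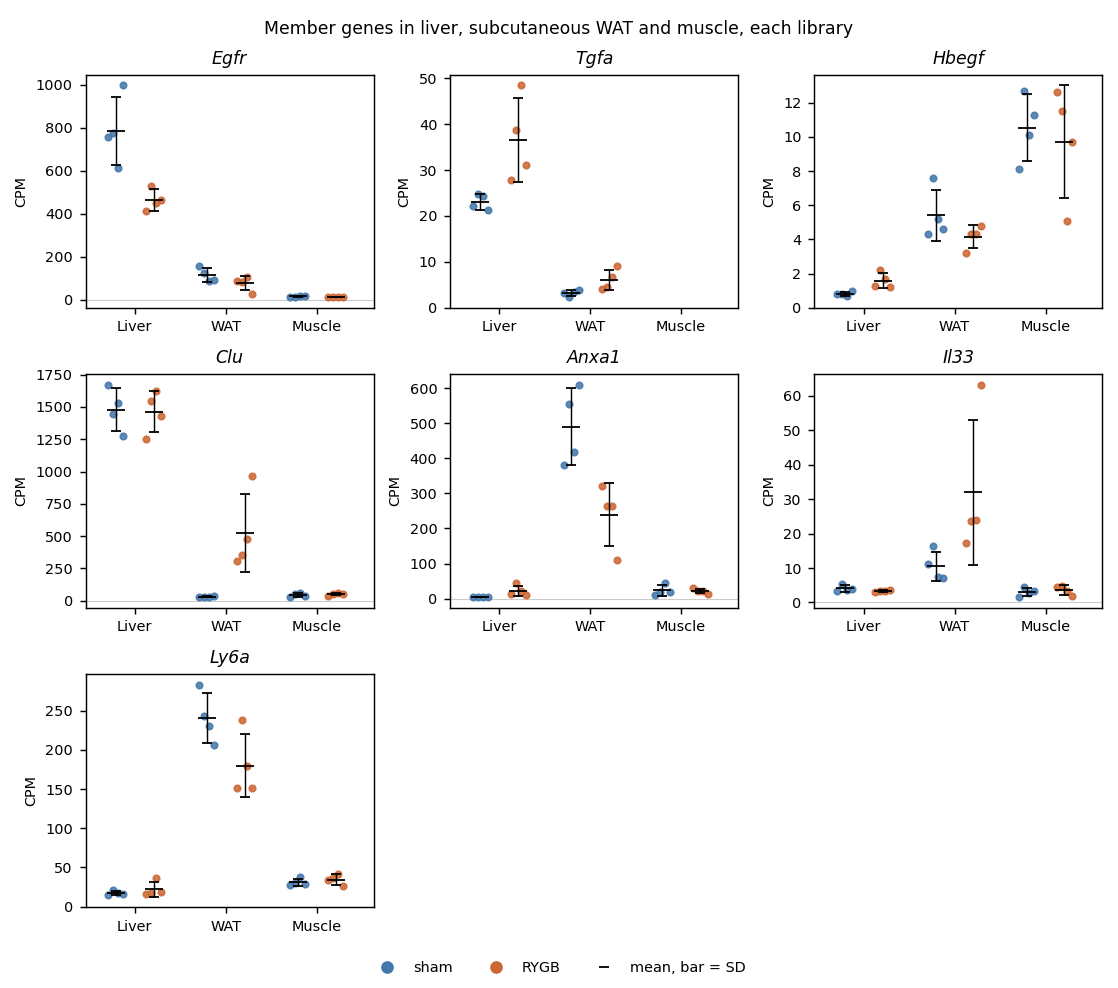
CPM of 7 member genes in each library of liver, WAT and muscle (blue sham, orange RYGB), with the mean and SD of each group as black bars; Tgfa was not listed in muscle. Egfr is lower in all 4 RYGB livers, and Clu is higher in all 4 RYGB samples of WAT.

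In WAT 3 of 7 members were higher and 1 lower, beside 24.1% of all 13379 genes called, 14.9% as higher and 9.23% as lower. Clu was at 308.8, 353.9, 476.1 and 964.6 CPM in RYGB 1 to 4 and at 32.1, 30.3, 30.8 and 34.4 CPM in sham 1 to 4. The groups did not overlap, as for 26.1% of all genes in this direction. The sham libraries lay close together and the RYGB libraries spread widely. Its log2 fold change was 3.85 ± 0.31 (adjusted p = 0.000117). The B cell genes Cd79a, Cd79b, Ms4a1, Cr2 and Fcer2a, a list written after their values were seen, summed to 630.2 to 1589.9 CPM in RYGB and to 5.3 to 11.9 CPM in sham, and the 7 T cell markers to 332.9 to 1256 and 11.8 to 21 CPM. Their part in the change of Clu was not tested.

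Il33 in WAT was at 17.2, 23.6, 23.8 and 63.2 CPM in RYGB and at 11.2, 16.3, 7.5 and 7.1 CPM in sham (1.40 ± 0.39, adjusted p = 0.0245), and Tgfa at 4.2, 4.6, 6.7 and 9 CPM against 3.2, 2.3, 3.4 and 3.9 CPM (0.73 ± 0.23, adjusted p = 0.0362). The groups did not overlap for either gene, as for 26.1% of all genes in this direction. The call of Il33 was lost without sham 3 or sham 4, and that of Tgfa was lost in 6 of the 8 fits that left out 1 library (all except those without RYGB 1 or RYGB 2). Anxa1 was lower, at 319.8, 263.4, 265 and 110.4 CPM against 380, 555.3, 417.6 and 609.3 CPM (-1.11 ± 0.32, adjusted p = 0.0275), with the call lost without sham 2 or sham 4. Egfr was at 29.1 to 106.4 CPM against 89.7 to 156.8 CPM and was not called (-0.70 ± 0.38, adjusted p = 0.166), while with lane in the fit it was -0.92 and called (adjusted p = 0.0233). Ly6a was at 151.5 to 237.6 against 205.8 to 283.2 CPM (-0.43 ± 0.17, adjusted p = 0.0677). The 7 fibroblast markers summed to 1626 to 6169 CPM in RYGB and to 4693 to 16082 CPM in sham, with none called. The 6 endothelial markers summed to 1158 to 1606 and 1975 to 3247 CPM with 5 lower, and the 7 macrophage markers to 721.2 to 1340.2 and 1368.3 to 2164.3 CPM with 3 lower. Their part in the values of Anxa1 and Egfr was not tested.

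In muscle none of 6 members and none of 11966 genes was called by limma (0% of genes), although 1746 genes (14.6%) had an unadjusted p under 0.05 and no member did. The median log2 fold change was 0.08 over the members and 0.05 over all genes. Egfr had the widest shift, at 11.9 to 13.9 CPM in RYGB and 12.6 to 19.5 CPM in sham (-0.29 ± 0.13, adjusted p = 0.36). Clu, Anxa1, Ly6a, Il33 and Hbegf overlapped between groups as well.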

How the data were processed

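RNA sequencing of 48 libraries was analyzed from the deposited gene tables, 1 per tissue. The values are CPM, which the authors deposited rounded to 0.1, as settled from the column sums of 925122 to 998777. In ileum, jejunum and liver sham 4 the score values, a formal label only, are CPM that the authors deposited rounded to 0.1. The label was given because repeated gene lines or lines with misplaced numbers bring the column sums as deposited outside what CPM allow. Repeated lines were counted once, and 12 incomplete liver lines were left out. After this the sums of these columns lay in the range above, and they were analyzed as CPM like all others. The submitters' processing notes name HTSeq and GRCm38. The aligner, versions and strand setting are not given in the sources used here. Depth is unknown, so no counting interval was computed, and total counts are not used here. Replicates are separate samples by label only. Where they are not separate mice, p-values measure technical spread.

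The comparison used limma (version 3.58.1, R 4.3.3, trend) on log2(CPM + 1) for genes averaging 1 CPM or more, with Benjamini-Hochberg adjustment within a tissue, and the method was tested on simulated data. Python 3.11.15, pandas 2.3.3, numpy 2.4.6 and matplotlib 3.10.9 were used. Named were all members, at most 12 called genes of the pathway lists per segment by absolute log2 fold change, and the 3 genes most like each member called in the intestine. A gene that this rule would name is not reported here. The members, lists and motifs were chosen with earlier results of these data known. Alternatives were a pseudocount of 0.1, no filter, a minimum mean of 10 CPM, median-ratio scaling, no trend, the adjusted p alone, lane, a replicate block and leaving out 1 library. Tissues were not compared by a test, since their tables were normalized separately. Coordinates follow GENCODE M21.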

Additional observations from a re-analysis of the deposited data

Results flagged for a closer look

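Over 74 groups of 4 or 5 libraries examined for a library far from the others, 4 stood out, where chance alone gives about 1 in 20, or 3.7. Hbegf in jejunal sham 1 was at 27.6 CPM with the next library at 17.6 CPM, a gap of 0.866 of the range on the log2(CPM + 1) scale, which holds for the other gaps too. Clu in jejunal sham 3 was at 7.1 CPM with the next at 1.1 CPM (0.898 of the range). Tgfa in ileal sham 5 was the lowest at 30.4 CPM with the next at 41.1 CPM (0.719), and Ly6a in the liver of RYGB 3 was at 36.8 CPM with the next at 18.9 CPM (0.839).

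Some members differed in opposite directions in different tissues, with every RYGB library on one side of every sham library in each tissue. Of all genes tested, 9.75% were higher and 12.5% lower in this way in jejunum, and 12.7% and 2.93% in duodenum. In liver these shares were 13.4% and 3.05%, and in WAT 26.1% and 15%. The differences between tissues were not tested, and Clu in jejunum and Tgfa in duodenum did not pass the test within their own tissue. Egfr had log2 fold changes of 1.25 in jejunum and -0.74 in liver, 1.99 apart. Clu had 3.85 in WAT and -0.95 in jejunum, 4.80 apart. In the jejunum Clu was listed only through the sham libraries, so its separation there is partly set by the listing. Its highest RYGB library (0.7 CPM) and lowest sham library (0.8 CPM) differed there by no more than the rounding. Anxa1 had 1.60 in liver and -1.11 in WAT, 2.71 apart. Tgfa had -0.38 in duodenum, 0.99 below its value of 0.61 in liver and 1.11 below its value of 0.73 in WAT.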

How the results depend on the processing

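The calls of Sprr1a, Il33 and Egfr in the jejunum were made under every alternative run, including each left-out library. With a minimum mean of 10 CPM 14 and with lane in the fit 12 of the jejunal pathway genes were called, and no member was called in the ileum with that filter (0), where Ereg is no longer tested. The number of members called when 1 library was left out ranged from 0 to 1 in duodenum, 0 to 2 in ileum, 0 to 3 in liver (0 without RYGB 3, 1 without sham 1 or sham 4) and 1 to 4 in WAT (2 without sham 2 or sham 3, 1 without sham 4), and that of pathway genes from 0 to 1, 12 to 25 and 4 to 9 in duodenum, jejunum and ileum. Some values that were not called changed sign. With lane in the fit Hbegf and Egfr in muscle came to 0.22 and 0.01, with median-ratio scaling Anxa1 in muscle to -0.04, and Sprr1a in the duodenal libraries low in pancreatic genes, a choice made after seeing the data, to 0.75. Leaving out 1 library gave -2.01 to 0.04 for Clu and -0.50 to 0.17 for Sprr1a in duodenum, -0.29 to 0.08 for Egfr in ileum, -0.09 to 0.06 for Clu in liver, and in muscle -0.29 to 0.10 for Hbegf, -0.25 to 0.38 for Anxa1 and -0.01 to 0.40 for Il33. The cause was not tested. Median-ratio scaling moved the median of all genes in WAT from 0.11 to 0.00.

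With the replicate number as a block, 1 member (Il33, 1.98, adjusted p = 0.0323) and 1 pathway gene were called in the duodenum and 0 members in the ileum (Ereg 1.10, adjusted p = 0.0721). For libraries with equal numbers, the correlations of their deviations ran from -0.281 to 0.389, and no tissue had all of them above 0.1. In groups this small these values cannot settle whether equal numbers pair the samples.

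Lane could not enter the fit in duodenum and ileum, where it holds 1 value or follows surgery. In the jejunum it acts as leaving out RYGB 2. Genes near 1 CPM are limited by rounding, and groups of 3 to 5 libraries leave wide intervals.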
